A study of Moricandia arvensis and Moricandia suffruticosa and Moricandia moricandioides with 78 samples.

Results

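The beta carbonic anhydrases of Moricandia leaves were followed as the 6 Arabidopsis identifiers on which the reads of this family were counted, out of 33602 features in each library. These were CA1 (AT3G01500), CA2 (AT5G14740), CA3 (AT1G23730), CA4 (AT1G70410), CA5 (AT4G33580) and CA6 (AT1G58180). The family was taken whole, by its identifiers, and all 6 members passed the filter on low counts in each of the 26 comparisons made. It was chosen by measured values too, since it was taken up with 2 differences already known, in the counts of CA6 between Mmo and Mav at T0 and of CA1 between droughted Mmo and Mav at T2. The values of all members in those 2 comparisons, and in the interactions that contain the droughted plants of both species, are therefore a description without a test. Other comparisons use part of those values, CA6 of T0 controls or CA1 of T2 droughted plants in Mmo or Mav. Their p-values for that member are not independent of the choice and are no separate support. The rule has no threshold.

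Carbonic anhydrases interconvert CO2 and bicarbonate, and in leaves they set how fast inorganic carbon moves between the forms used by Rubisco and by PEP carboxylase. The beta type is the main one in plant leaves. In Arabidopsis CA1 and CA5 are located in the chloroplast, CA2 and CA3 in the cytosol, CA4 at the plasma membrane and CA6 in the mitochondrion. CA1 and CA4 of Arabidopsis act in the closing of stomata in response to CO2, and CA2 and CA4 supply bicarbonate to PEP carboxylase.

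Mature leaves came from 3 species without any genetic change, the C3 plant Moricandia moricandioides (Mmo) and the C2 plants M. arvensis (abbreviated Mav) and M. suffruticosa (abbreviated Msu). C2 species recapture photorespired CO2 in the bundle sheath. Droughted plants received no water, and their stomatal conductance (Gs) had declined to about 50% of its start at T1 and to 10% at T2. Plants called rewatered (RW) had passed through this drought and been watered again. Controls received the lost water each day at all sampling points, and T0, at 100% Gs, had controls alone. Each species was represented by 1 seed stock. The study describes Mmo and Mav as diploid and Msu as tetraploid. Its counting did not allow for ploidy, and for that reason it limited quantitative comparisons to Mmo and Mav. Differences between Msu and the other species are given here under that limit. Droughted or rewatered plants gave 31 libraries: for Mmo 3 at T1, 3 at T2 and 4 at RW, for Mav 1, 5 and 4 at these points, and for Msu 3, 4 and 4. Controls gave 47 libraries, from T0 through T1 and T2 to RW 4, 4, 2 and 4 for Mmo, 5, 4, 5 and 5 for Mav, and 4, 4, 3 and 3 for Msu. Libraries are named by their replicate code in the labels, which call them biological replicates.

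The total count per library was 22346621 to 41675513 (median 31633176), so the lowest member value, 40 counts for CA3, still stood clear of 0. Not all libraries of a group were distinct. For each pair the median squared difference between libraries was divided by that expected from counting alone, and the ratio was under 4 in 20 of 116 pairs within a group, against a median of 87.9 over all pairs. As the lowest ratio was 1.64, these near-identical libraries differed by more than counting noise and were kept apart, and calls that were lost when they were summed are given beside each result. Such ratios do not show that the libraries came from different plants. With near-identical libraries joined, the 4 rewatered libraries of Mmo, the 4 of Mav and the 4 Msu T0 controls each made 2 distinct profiles. A further 4 such pairs joined different groups, the Msu T2 droughted libraries S5s and S8s with the Msu T2 controls S33c and S36c (ratios 1.82 to 2.25). These 4 and the Msu RW controls S5c, S6c and S7c resembled Mmo more than Msu over 18197 genes, with a median correlation of 0.877 to 0.903 with Mmo libraries and 0.839 to 0.854 with Msu libraries. Each of the 71 other libraries was closest to its own species. Comparisons that rest on these 7 libraries, called Mmo-like here, are given with and without them. Ranges, orders and correlations over the groups include them throughout. The 4 leaf mesophyll markers were abundant, at a summed 4688 to 47775 CPM (reads of a gene per 1000000 counted, scaled with the TMM factors of edgeR), while the 5 guard cell markers summed to 15.3 to 95.6, the 3 root markers to 0 to 3.67, the 3 flower markers to 0 to 14.3 and the 3 seed markers to 0 to 114 CPM. In such bulk samples fewer cells of a type and less RNA per cell cannot be told apart.

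CA1 made up most of the family's transcripts. On the TPM scale, which allows for transcript length, CA1 was the highest member in 73 of the 78 libraries, and CA6 was the highest in the other 5, which were the 5 Mav T2 droughted libraries. CA2 was second in 60 libraries, and CA3 was the lowest in 70 and CA6 in 8. The share of CA1 in the family's summed TPM averaged 87.9% in Mmo, 81.6% in Mav and 89.5% in Msu at T0. CA2 held 8.04% in Mmo, 14.3% in Mav and 7.41% in Msu, and CA6 0.649%, 0.129% and 0.277% in the same order of species. The mitochondrial member was thus a trace of the family at T0 in all 3 species, while in RW controls it held 1.52% in Mmo (up to 2.89%) and 2.77% in Mav (up to 5.32%). CA1 and CA2, and likewise CA3 and CA4, are related copies, and reads that match both equally well could have been counted on either, so the split between them is uncertain.

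**Figure D1:**
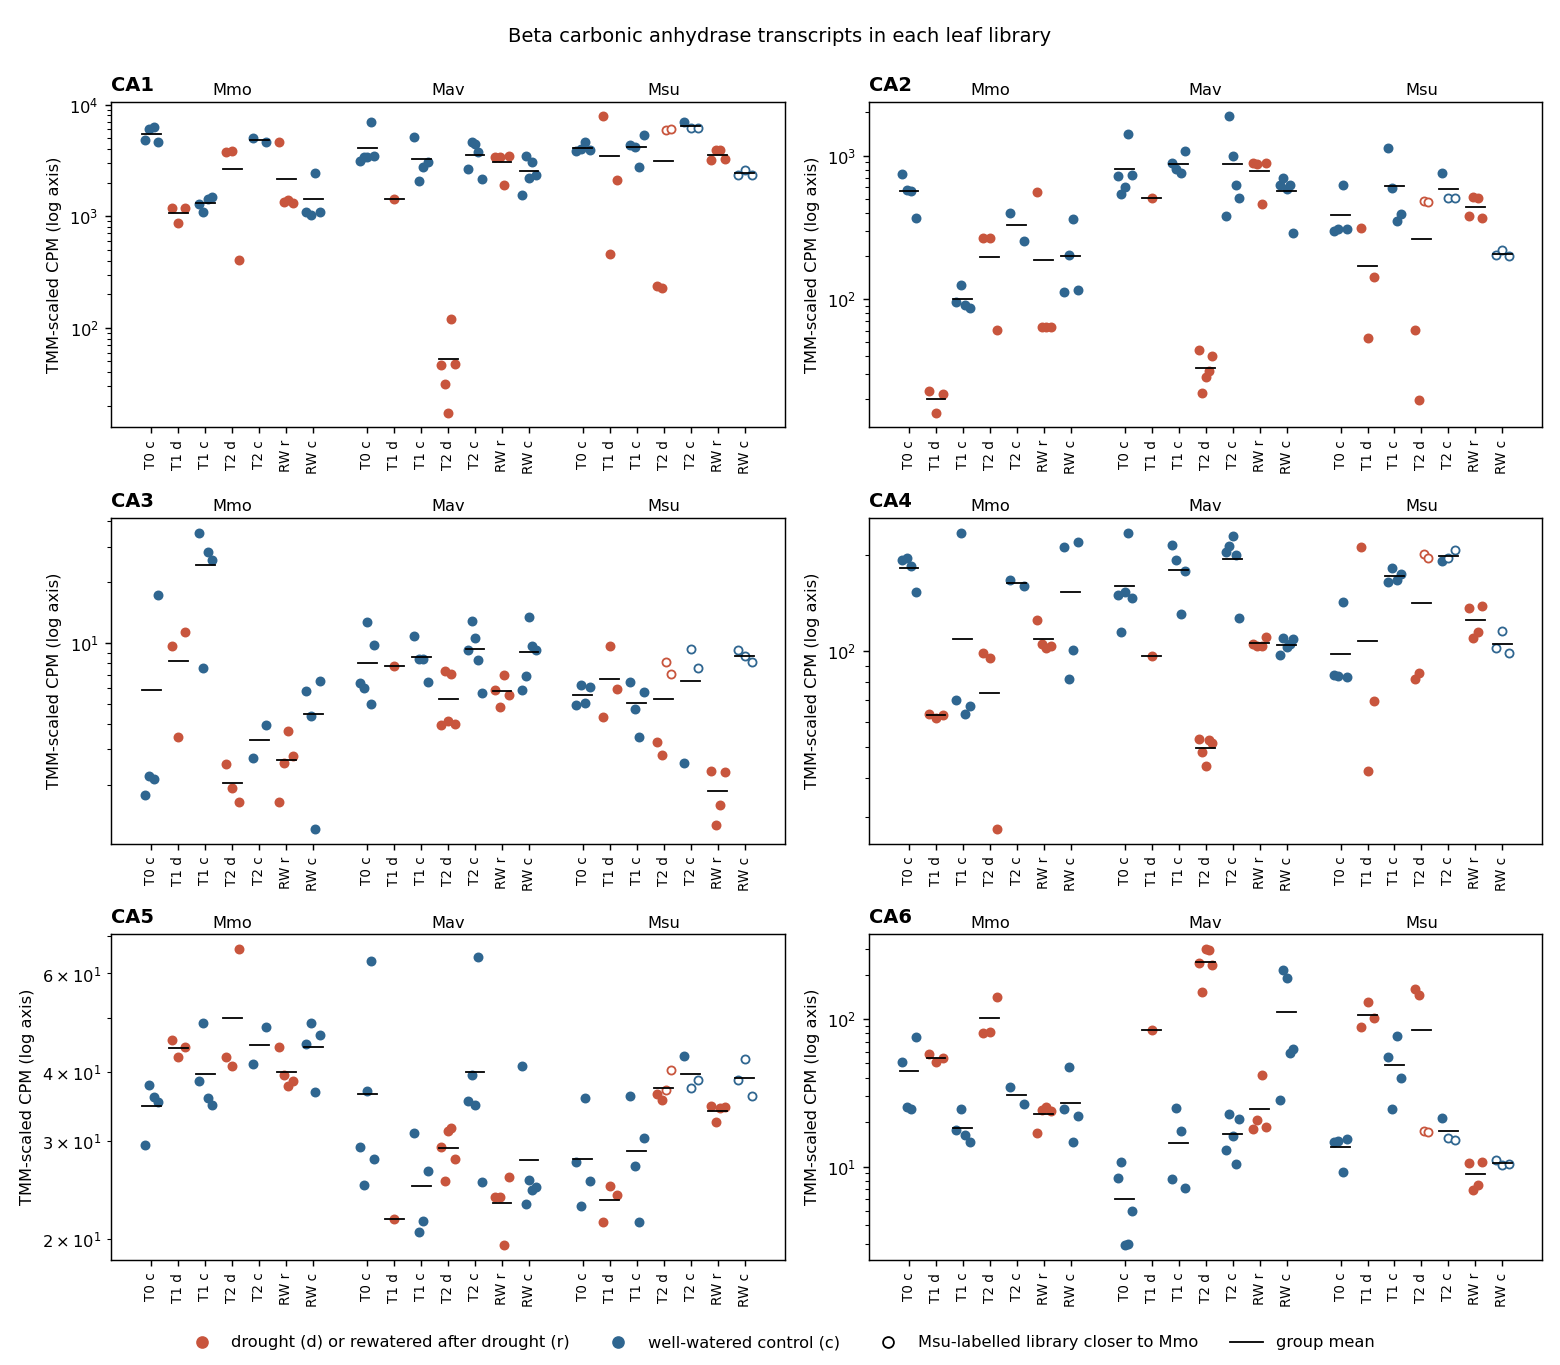
TMM-scaled CPM (log axis) of each member in each of the 78 libraries, in groups by species and sampling point, with droughted or rewatered plants (red) left of their controls (blue); lines are group means and open points are the 7 Msu-labelled libraries closer to Mmo. CA1 fell to 17.4 to 121 CPM in the Mav T2 droughted libraries, against 2154 to 4648 CPM in their controls, while CA5 kept within 19.5 to 66.4 CPM in all libraries.

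The members differed in how far their levels ranged. Over the 20 groups with at least 2 libraries, the highest group mean in CPM was 122 times the lowest for CA1, 43.5 times for CA2, 40.5 times for CA6, 13 times for CA3, 4 times for CA4 and 2.15 times for CA5. CA1 ran from 52.9 ± 40.2 CPM in Mav T2 droughted plants (SD, n = 5) to 6436 ± 472 CPM in Msu T2 controls (n = 3), and CA6 from 6.02 ± 3.47 CPM in Mav T0 controls (n = 5) to 244 ± 59.3 CPM in Mav T2 droughted plants (n = 5). The Msu T2 controls, which were also the highest group for CA4, include the Mmo-like S33c and S36c. When the 20 groups were put in order of their mean CPM, the libraries of neighbouring groups failed to overlap in 1 of 19 steps for each of CA1, CA2, CA4 and CA5, and in none for CA3 and CA6. For CA1 that step separated Mav T2 droughted plants from the next group up, Mmo T1 droughted plants (1076 ± 186 CPM, n = 3). As the groups were sorted by mean, neighbours are those closest to each other. Overlap between them was therefore likely from the start and is no test of a difference. Across the 20 group means of log2 CPM the correlation was 0.75 between CA1 and CA2, 0.72 between CA1 and CA4 and 0.78 between CA2 and CA4. CA6 ran opposite to these, with −0.61 to CA1, −0.54 to CA2 and −0.58 to CA4. These are descriptions, since the members were measured in the same libraries, at the same depth, and the groups cover few conditions.

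**Figure D2:**
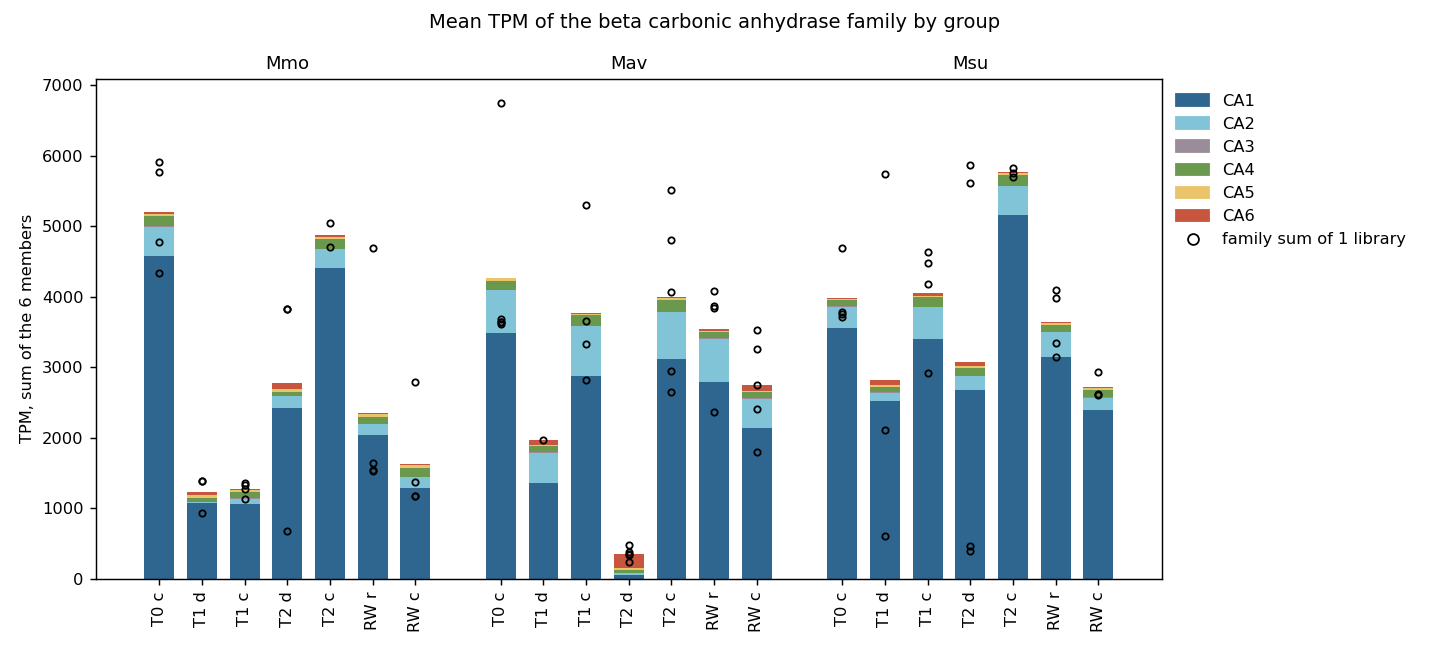
Mean TPM of the 6 members stacked by group, with droughted or rewatered plants left of their controls; open circles are the family sum of single libraries. The sum was 356 TPM in Mav T2 droughted plants, against 3996 TPM in their controls, and Mmo stood at 1233 TPM in T1 droughted plants and 1271 TPM in T1 controls.

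Severe drought at T2 changed 4 of the 6 members in Mav, with CA1, CA2 and CA4 lower and CA6 higher. CA1, the chloroplast member, was at 46.5, 31.7, 17.4, 121 and 47.6 CPM in the droughted plants, against 2656, 4648, 4403, 3756 and 2154 CPM in the T2 controls. The groups did not overlap, and CA1 was 67.9-fold lower in droughted plants (log2 fold change −6.09 ± 0.55 SE, adjusted p = 1.4e-05, the quasi-likelihood test of edgeR, Benjamini-Hochberg adjusted over all genes). These droughted CA1 values were among those behind the choice of the family, so this p is no independent support. CA2, a cytosolic member, was at 44.5, 22.2, 28.6, 31.4 and 39.9 CPM in droughted plants and at 378, 1880, 992, 623 and 504 CPM in controls. It was 26.8-fold lower, again without overlap (−4.74 ± 0.46, adjusted p = 2.3e-05). CA4, the plasma membrane member, was at 53.1, 48.1, 43.6, 52.5 and 51.3 CPM in droughted plants and at 205, 214, 230, 201 and 127 CPM in controls. The droughted plants were close to one another and below all controls, and CA4 was 4-fold lower (SE 0.18 on the log2 scale, adjusted p = 1.3e-05).

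CA6, the mitochondrial member, moved the other way in the same leaves. It was at 241, 152, 298, 295 and 232 CPM in Mav T2 droughted plants, against 12.9, 22.8, 16, 10.4 and 20.9 CPM in controls. Each droughted library was above all controls, and CA6 was 14.4-fold higher in droughted plants (log2 fold change 3.85 ± 0.27 SE, adjusted p = 3.9e-06, edgeR). CA3 was at 3.95, 7.28, 4.14, 7.08 and 3.98 CPM in droughted plants and at 9.27, 12.9, 10.6, 8.26 and 5.66 CPM in controls. The groups overlapped, and its difference of −0.85 ± 0.28 (adjusted p = 0.031) stayed under the limit of 1 on the log2 scale that a call required. CA5, the second chloroplast member, averaged 29.1 ± 2.57 CPM in droughted plants and 39.9 ± 14.6 CPM in controls (SD, n = 5 each) and was not called (−0.49 ± 0.23, adjusted p = 0.11). Of the 19613 genes tested in this comparison 28.2% were called, 11.6% as higher and 16.6% as lower, so calls were common, and the median log2 fold change was −1.43 over the 6 members and −0.01 over all genes. The summed TPM of the family was 235 to 478 in droughted plants (mean 356 ± 86.9, n = 5) and 2653 to 5508 in controls (3996 ± 1209, n = 5). The share of CA6 in that sum was 52% to 69.3% in droughted plants and 0.211% to 0.651% in controls, while CA1 held 4.57% to 24.7% in droughted plants and 71.2% to 82.1% in controls.

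The 4 changes had the same sign within each sequencing lane that held Mav T2 plants of both kinds. Lane 2 (4 droughted, 1 control) gave log2 ratios of −6.94 for CA1, −4.87 for CA2, −2.23 for CA4 and 3.85 for CA6, and lane 7 (1 droughted, 2 controls) gave −4.61, −4.17, −1.64 and 4.24. Each call was kept in all 10 fits that left out 1 library. Other markers moved with this comparison. The 4 drought-induced genes that include NCED3, which makes the first committed precursor of abscisic acid, summed to 5733 to 11546 CPM in droughted plants and 118 to 766 CPM in controls. The 3 senescence genes that include NYE1, a chlorophyll breakdown gene, summed to 262 to 860 CPM in droughted plants and 12.3 to 45.1 CPM in controls. The 4 leaf mesophyll markers, 4 of 4 of which fell, summed to 4688 to 10172 CPM in droughted plants and 15051 to 26925 CPM in controls, and the 5 guard cell markers, none of which was called, to 49.3 to 68.3 CPM in droughted plants and 44.4 to 56.8 CPM in controls. The 3 root markers summed to 1.97 to 3.67 CPM in droughted plants and 0 to 0.117 CPM in controls, a level carried by AT1G12560, while AT5G49270 was at 0 in 77 of the 78 libraries. The 3 flower markers summed to 1.16 to 14.3 CPM in droughted plants and 0.608 to 2.29 CPM in controls. Their part in the changes of the family was not tested.

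Other genes that handle CO2 or bicarbonate were counted in the same comparison, in which 28.2% of all genes were called and 16.6% were lower, from lists of Arabidopsis identifiers. Of the 5 Rubisco small subunit and activase genes, 4 fell in Mav T2 droughted plants and none rose (median log2 fold change −2.91), among them the small subunits AT5G38410 (−3.37 ± 0.26, adjusted p = 5.9e-06, edgeR) and AT1G67090 (−2.45 ± 0.31, adjusted p = 1.0e-04). Of the 2 alpha carbonic anhydrases tested out of 8, 1 fell, namely alpha CA1 (AT3G52720), a chloroplast protein in Arabidopsis (−1.31 ± 0.21, adjusted p = 5.2e-04). Of the 5 gamma carbonic anhydrases, which belong to mitochondrial complex I, none was called, with a median of −0.22. Of the 13 carboxylases that use bicarbonate, 4 fell and none rose (median −0.63), including the PEP carboxylase AT2G42600 (−1.22 ± 0.24, adjusted p = 0.0016). Of the 10 guard cell CO2 signalling genes tested, 2 fell and none rose (median −0.20). The share of the signalling genes that fell was near the 16.6% of all genes. That of the carboxylases, 4 of 13, was above it, but the list is short and the difference was not tested. In the Mmo T2 comparison, where 4.49% of all genes were called, the same lists had 0 of 5, 0 of 2, 0 of 5, 2 of 13 (both lower) and 0 of 10 called.

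Rewatered Mav plants differed from T2 droughted plants in the same 4 members, in the opposite direction. Mav controls also differed between these sampling points. CA4 averaged 195 ± 40.1 CPM in T2 controls and 105 ± 5.26 CPM in RW controls, and CA6 16.6 ± 5.25 and 111 ± 85 CPM. Rewatering and sampling point therefore cannot be told apart in this comparison. CA1 was at 3373, 3380, 1888 and 3490 CPM in rewatered plants, 58.5-fold higher than in T2 droughted plants (log2 fold change 5.87 ± 0.55 SE, adjusted p = 1.6e-05, edgeR). The droughted side again held the CA1 values behind the choice of the family, so this p is no independent support either. CA2 was at 893, 871, 462 and 895 CPM in rewatered plants (4.57 ± 0.29, adjusted p = 1.6e-06). CA4 was at 105, 104, 104 and 111 CPM (1.11 ± 0.11, adjusted p = 2.8e-05), about 2.17 times its T2 droughted level. CA6 was at 17.9, 20.6, 41.9 and 18.5 CPM in rewatered plants and fell 9.66-fold (−3.27 ± 0.32, adjusted p = 2.2e-05). None of these 4 members overlapped between rewatered and T2 droughted plants, and 33.4% of the 19819 genes tested were called, 17.8% as higher and 15.7% as lower. CA3 (0.16 ± 0.26, adjusted p = 0.63) and CA5 (−0.30 ± 0.13, adjusted p = 0.088) were not. The rewatered libraries A30s, A38s and A42s were near-identical, and the calls of CA1, CA2, CA4 and CA6 held when they were summed. Within lane 2 (3 rewatered, 4 droughted) the log2 ratios were 6.33 for CA1, 4.46 for CA2, 1.09 for CA4 and −3.11 for CA6, and within lane 7 (1 of each) 4.85, 4.83, 1.08 and −3.99.

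Against the Mav RW controls no member was called, where 0.265% of 19623 genes were. CA1 averaged 3033 ± 765 CPM in rewatered plants (SD, n = 4) and 2520 ± 758 CPM in controls (n = 5), and CA4 106 ± 3.61 CPM in rewatered plants and 105 ± 5.26 CPM in controls. CA6 was spread widely among the controls, at 28.3, 216, 188, 58.8 and 62.2 CPM, against the 17.9 to 41.9 CPM of rewatered plants (−2.18 ± 0.61, adjusted p = 0.13, edgeR). The highest CA6 values of any well-watered plant were therefore those of the RW controls A8c and A10c, within the range of the severely droughted Mav plants. Without control A6c the difference in CA6 was called (−2.41 ± 0.49, adjusted p = 0.037), and DESeq2 called it with all libraries (−2.19 ± 0.56, adjusted p = 0.0052). An unadjusted p under 0.05 was reached by 3602 genes and by 2 of the members.

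At T1 a single droughted Mav library, A34s, allowed no test. CA6 stood at 84.6 CPM in it, against 8.23, 25.1, 17.5 and 7.11 CPM in the 4 T1 controls, a log2 difference of 2.55 from their mean. CA1 (1427 CPM), CA2 (510 CPM) and CA4 (96.8 CPM) were below the control ranges of 2076 to 5102, 759 to 1076 and 131 to 216 CPM. CA3 and CA5 were within theirs. In this 1 library CA1, CA2, CA4 and CA6 thus lay on the same sides of their controls as at T2, with smaller differences.

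In Mmo, the C3 species, moderate drought at T1 changed 2 members. CA2 was at 22.8, 16.2 and 21.8 CPM in droughted plants, against 95.3, 125, 90.7 and 87.4 CPM in T1 controls. It was 5.02-fold lower without overlap (log2 fold change −2.33 ± 0.20 SE, adjusted p = 3.8e-04, edgeR). CA6 was at 58.2, 51.4 and 54.4 CPM in droughted plants and at 17.7, 24.7, 16.3 and 14.7 CPM in controls. It was 2.92-fold higher, also without overlap (1.55 ± 0.19, adjusted p = 0.0014). Both calls held in all 7 fits that left out 1 library, and 17.8% of 19989 genes were called. CA1 was at 1186, 862 and 1180 CPM in droughted plants and at 1280, 1099, 1438 and 1479 CPM in controls, and the groups overlapped (−0.33 ± 0.20, adjusted p = 0.24). CA3 (−1.59 ± 0.57, adjusted p = 0.07), CA4 (−0.83 ± 0.50, adjusted p = 0.24) and CA5 (0.13 ± 0.15, adjusted p = 0.53) were not called. CA4 varied little among the droughted plants, at 62.8 ± 0.939 CPM (SD, n = 3), while control M6c, at 235 CPM, stood far above the other controls at 63.4 to 70.3 CPM. M6c was most like the Mmo RW controls M21c and M24c (ratios of squared difference 9.63 and 10.4). CA4 held 14.7%, 13.5% and 13.9% of the family's TPM in M6c, M21c and M24c, and 3.45% to 4.32% in the other T1 controls. CA3 was called without M6c (−1.90 ± 0.35, adjusted p = 0.0016), by DESeq2 with all libraries (−1.57 ± 0.55, adjusted p = 0.016) and in a single edgeR fit over the 78 libraries (−1.56 ± 0.52, adjusted p = 0.033). Droughted plant M7s shared lane 5 with the controls, and alone against them gave log2 ratios of −2.13 for CA2 and 1.67 for CA6. The leaf mesophyll markers summed to 9856 to 10512 CPM in the droughted plants and 13391 to 47775 CPM in the controls. The senescence genes summed to 148, 303 and 143 CPM in the droughted plants and 24.2 to 34.2 CPM in the controls, and the drought-induced genes to 302 to 350 CPM in the droughted plants and 112 to 137 CPM in the controls, both without overlap. The part of these in the result was not tested.

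At T2 no member was called in Mmo, where 4.49% of 20497 genes were. CA6 was at 79.9, 81.3 and 141 CPM in droughted plants, against 34.4 and 26.4 CPM in the 2 controls. It did not overlap, and its difference of 1.71 ± 0.35 had an adjusted p of 0.055 (edgeR). CA1 was at 3784, 3808 and 402 CPM in droughted plants, against 4989 and 4583 CPM in controls (−0.87 ± 0.88, adjusted p = 0.61). Plant M20s thus had the lowest CA1 of the Mmo libraries, while M17s and M19s, which were near-identical, lay close to the controls. M20s was also apart in CA2 (61.3 CPM, against 266 and 266 CPM in the other droughted plants) and CA4 (27.6 CPM, against 98.5 and 95.3 CPM), the lowest CA4 value of all 78 libraries. It held 59.9% of the family's TPM as CA1 and 17.8% as CA6, while M17s and M19s held 89.8% and 90% as CA1. The drought-induced genes summed to 1984 to 3286 CPM in the droughted plants, M20s being the highest, and to 47.6 and 157 CPM in the controls. Without M20s, CA6 was called (1.38 ± 0.17, adjusted p = 0.014), as it was by DESeq2 with all libraries (1.71 ± 0.38, adjusted p = 2.1e-04) and by edgeR with no filter on low counts (1.68 ± 0.33, adjusted p = 0.045), and 4827 genes and 1 of the members had an unadjusted p under 0.05. The droughted side without M20s was only the near-identical M17s and M19s. Its p thus does not measure a spread between distinct droughted profiles. With the Mmo T1 controls in place of the T2 controls CA6 (2.44 ± 0.28, adjusted p = 0.0016) and CA3 (−3.58 ± 0.52, adjusted p = 0.004) were called.

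After rewatering, CA6 fell in Mmo too. It was at 16.9, 24.2, 25.5 and 23.9 CPM in rewatered plants, below the 79.9 to 141 CPM of T2 droughted plants (log2 fold change −2.16 ± 0.25 SE, adjusted p = 0.0013, edgeR), and 17.8% of 20192 genes were called. With the near-identical libraries M26s, M27s and M28s, and M17s and M19s, summed, the difference was −2.40 ± 0.44 with an adjusted p of 0.1, so this call rests on counting them apart. CA1 was at 4583, 1328, 1407 and 1325 CPM in rewatered plants and did not differ detectably from T2 (−0.28 ± 0.81, adjusted p = 0.82), and neither did CA2, at 561, 63.7, 64.2 and 63.6 CPM (−0.04 ± 0.97, adjusted p = 0.98). Plant M25s was apart from the other 3 in both, and without it CA2 was called lower (−1.64 ± 0.53, adjusted p just under the threshold of 0.05). The rewatered side of that fit held only the near-identical M26s, M27s and M28s. Against the Mmo RW controls no member was called (0.18% of 19445 genes were, while 3831 genes and 0 of the members had an unadjusted p under 0.05, and DESeq2 called no member either), the largest difference being that of CA3 (−0.77 ± 0.50, adjusted p = 0.41). All 4 rewatered libraries of Mmo came from lane 7 and their controls and the T2 plants from lane 6, so lane and treatment cannot be told apart there.

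In Msu the drought comparisons rested on few or Mmo-like libraries and called hardly any gene. At T1, where 0.168% of 19657 genes were called (3190 had an unadjusted p under 0.05), no member was by edgeR, although 2 of the members had an unadjusted p under 0.05. CA6 was at 87.6, 130 and 102 CPM in droughted plants and at 55.5, 24.5, 76.2 and 39.7 CPM in controls, without overlap (log2 fold change 1.14 ± 0.38 SE, adjusted p = 0.18, edgeR). CA2 was at 314, 53.6 and 143 CPM in droughted plants and at 1134, 598, 353 and 393 CPM in controls, also without overlap (−1.86 ± 0.64, adjusted p = 0.2, and −1.85 ± 0.59, adjusted p = 0.031, by DESeq2). CA1 differed widely among the droughted plants, at 7839, 454 and 2113 CPM, and the highest of these, S10s, was the highest CA1 value of all libraries (controls 2764 to 5386 CPM). The drought-induced genes summed to 731, 3536 and 985 CPM in the same droughted plants, so the plant with the lowest CA1, S13s, had the highest sum. Without S10s, CA4 was called lower (−1.61 ± 0.29, adjusted p = 0.035).

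At T2 the 4 droughted Msu libraries fell into 2 kinds. S2s and S4s had 235 and 228 CPM of CA1 and 159 and 145 CPM of CA6, while S5s and S8s, which were closer to Mmo, had 5875 and 6081 CPM of CA1 and 17.3 and 17.1 CPM of CA6. The 3 controls had 6981, 6149 and 6177 CPM of CA1 and 21.2, 15.6 and 15.2 CPM of CA6. The drought-induced genes summed to 874 and 2091 CPM in S2s and S4s, to 83.3 and 83.3 CPM in S5s and S8s, and to 34.2 to 95.3 CPM in the controls, so S5s and S8s were within the control range of these genes. Taken as labelled, no member and no gene was called (0% of 20376, although 265 genes had an unadjusted p under 0.05, 1 of the members among them, and DESeq2 called none of 30709 genes either), with CA1 at −1.04 ± 1.18 and CA6 at 2.30 ± 0.92 (both adjusted p = 1, edgeR). Without the 7 Mmo-like libraries and with the T1 controls of Msu, S2s and S4s had lower CA1 (−4.15 ± 0.40, adjusted p = 0.0011), CA2 (−3.92 ± 0.74, adjusted p = 0.012) and CA4 (−1.03 ± 0.18, adjusted p = 0.009) and higher CA6 (1.65 ± 0.40, adjusted p = 0.029). This alternative was chosen after seeing the data and sets T2 plants against controls of an earlier sampling point.

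Rewatered Msu plants had 10.6, 6.89, 7.45 and 10.8 CPM of CA6, below all 4 T2 droughted libraries (log2 fold change −3.28 ± 0.80 SE, adjusted p = 0.02, edgeR), and CA3 was at 2.33, 1.26, 1.58 and 2.31 CPM, against 3.27, 2.79, 8.08 and 7.04 CPM at T2 (−1.56 ± 0.43, adjusted p = 0.03). In this comparison 17.1% of 19674 genes were called, and in lane 4, with 1 rewatered library and the 4 droughted ones, the log2 ratio of CA6 was −3.00. Without S5s and S8s, CA6 remained lower (−4.15), CA1 (3.89 ± 0.20, adjusted p = 4.2e-05) and CA2 (3.39 ± 0.50, adjusted p = 0.0022) were higher in rewatered plants, and CA3 was no longer called (−0.76 ± 0.33, adjusted p = 0.1). With near-identical libraries summed, neither CA6 (−3.61 ± 1.03, adjusted p = 0.18) nor CA3 (−1.35 ± 0.65, adjusted p = 0.33) was called, and neither was called when any 1 of the rewatered libraries S1s, S2s, S3s and S4s was left out (CA6 −3.40 to −3.18). CA3 was not called without S5s or without S8s either. Against the RW controls CA2 was higher in rewatered plants (1.06 ± 0.15, adjusted p = 3.4e-04) and CA3 lower (−2.27 ± 0.22, adjusted p = 5.2e-05), where 31.6% of 20489 genes were called. Those 3 controls are among the 7 Mmo-like libraries, and CA2 dropped just under the fold limit without S2s or without S3s (0.99 ± 0.14 in each case). In lane 4, with 1 rewatered library and the 3 controls, the log2 ratios were 0.87 for CA2 and −1.90 for CA3. With T1 controls in their place CA2 turned to −0.52 ± 0.35 (adjusted p = 0.34) and CA6 was called lower (−2.50 ± 0.35, adjusted p = 0.0037).

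**Figure D3:**
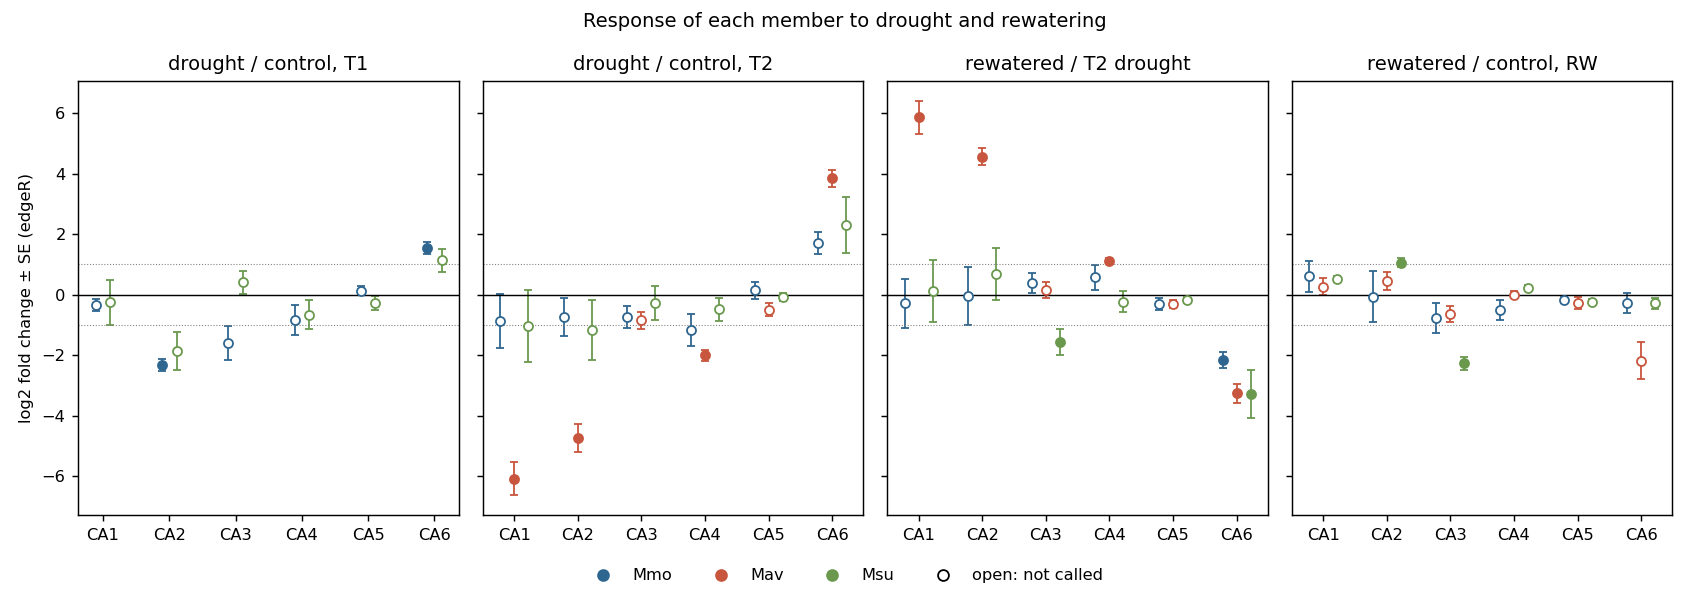
Log2 fold change of each member with its SE (edgeR) for drought over control at T1 and T2, rewatered over control at RW and rewatered over T2 drought, by species; filled points passed an adjusted p under 0.05 and a log2 fold change over 1 either way. The log2 fold change of CA6 in drought at T2 was 1.71 in Mmo, 3.85 in Mav and 2.30 in Msu, but only the Mav value was called. The Msu value averages S2s and S4s, above the controls, with the Mmo-like S5s and S8s, within the control range. The largest falls were those of CA1 (−6.09) and CA2 (−4.74) in Mav.

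The drought effect in Mmo was set against that in Mav as an interaction. At T2 and for the change on rewatering this difference contains the droughted Mmo and Mav plants whose CA1 was known when the family was chosen, so it is given for all members without a test. At T2 the log2 fold change of CA1 was −0.87 in Mmo and −6.09 in Mav, a difference of 5.22 ± 1.08 SE. The difference was 3.99 ± 0.85 for CA2 (−0.74 in Mmo and −4.74 in Mav) and −2.15 ± 0.44 for CA6 (1.71 and 3.85). For CA3, CA4 and CA5 it was 0.11 ± 0.49, 0.82 ± 0.48 and 0.61 ± 0.39, and 5.19% of the 22323 genes were called in this comparison. The change on rewatering in Mmo less that in Mav was −6.13 ± 0.96 for CA1, −4.59 ± 0.95 for CA2 and 1.16 ± 0.42 for CA6, with 21.8% of 21891 genes called. With near-identical libraries summed, CA1 and CA2 still differed by more than the fold limit, while CA6 was at 0.61 ± 0.62. The interactions at RW and T1 were tested. No member was called by edgeR for the effect at RW (1.81% of 21163 genes were, and 1 of the members had an unadjusted p under 0.05), nor between Mmo and Msu for the effect at T1 (6.1% of 21364 genes were, and 1 of the members had an unadjusted p under 0.05). At RW CA2 was called without M25s (−2.11 ± 0.53, adjusted p = 0.029), where the rewatered Mmo libraries left were near-identical. At T1 CA3, at −1.95 ± 0.68 (adjusted p = 0.11), was called without M6c (−2.27 ± 0.55, adjusted p = 0.024) and by DESeq2 (−1.99 ± 0.71, adjusted p = 0.044). These comparisons share libraries with those above and are not further evidence for them.

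CA6 was plotted against CA1 library by library, and their opposite course did not hold throughout. The Msu T1 droughted plant S10s had the highest CA1 of all libraries (7839 CPM) with CA6 at 87.6 CPM, above all Msu T1 controls. In Mmo controls both means were lower at T1 than at T0 (CA1 1324 and 5465 CPM, CA6 18.4 and 44.1 CPM). Besides the 5 Mav T2 droughted libraries, in which CA6 exceeded CA1, CA6 was the second member by TPM in 4 libraries, all of them droughted: the Msu T1 plant S13s, the Msu T2 plants S2s and S4s, and the Mmo T2 plant M20s. In these 4 the share of CA6 was 16.2%, 25.4%, 25.8% and 17.8% of the family's TPM. That of CA1 was 66.4%, 43.1%, 46.1% and 59.9%, and shares of the same sum are not independent. The summed TPM of the family was 605, 457, 387 and 681 in them, below all control libraries, of which the lowest was at 1124. In the other droughted plants CA6 held 3.37% to 4.09% (Mmo T1), 1.57% and 1.6% (M17s and M19s at T2), 0.908% and 3.59% (S10s and S15s in Msu at T1) and 0.21% and 0.218% (S8s and S5s). The 3 senescence genes summed to 536, 312, 278 and 75.2 CPM in S13s, S2s, S4s and M20s, and to 79.2 and 77.5 CPM in M17s and M19s. Their part in this pattern was not tested.

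**Figure D4:**
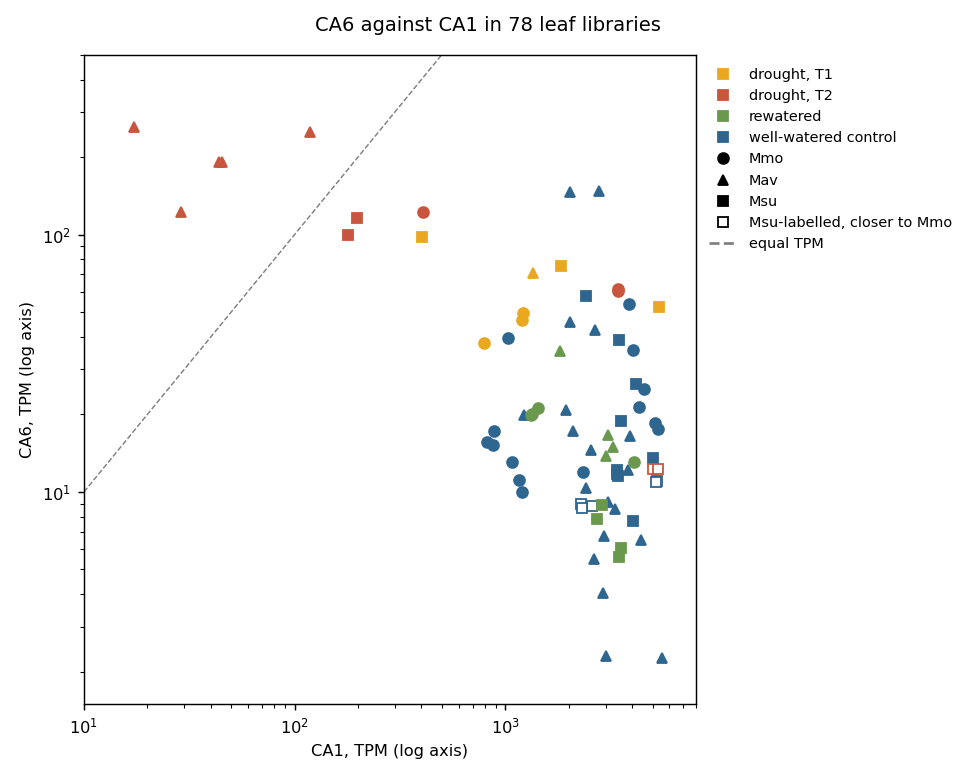
TPM of CA6 against TPM of CA1 (both log axes) in the 78 libraries, coloured by treatment and shaped by species, with a dashed line of equal TPM and open symbols for the 7 Msu-labelled libraries closer to Mmo. The 5 Mav T2 droughted libraries lie above the line, and S13s, S2s, S4s and M20s lie nearest below it.

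Between species, well-watered plants at T0 differed in CA6, most of all Mmo and Mav. Mmo had 51.1, 25.2, 24.4 and 75.8 CPM, against 8.39, 10.8, 2.93, 3.01 and 4.97 CPM in Mav, a log2 difference of 2.85 ± 0.48 SE without overlap (no test, since this difference was known when the family was chosen, and 31.8% of the 20187 genes were called). The other members were within 0.53 of each other on the log2 scale and overlapped, but without M12c CA3 was at −2.01 ± 0.36. CA6 of Mmo was also above that of Msu, which had 14.7, 14.9, 9.14 and 15.4 CPM (1.66 ± 0.38, adjusted p = 0.006, edgeR), where 32.3% of 19957 genes were called. Comparisons with Msu are limited by its ploidy. The CA6 values of Mmo and Mav at T0 were behind the choice of the family, so p-values from them are no independent support. CA4 was 0.85 ± 0.21 higher in Mmo than in Msu (adjusted p = 0.0082), under the fold limit. Mav had more CA2 than Msu, at 723, 537, 604, 1417 and 728 CPM in Mav and 299, 310, 628 and 309 CPM in Msu (1.04 ± 0.33, adjusted p = 0.044, 14.5% of 20166 genes called), a difference that overlapped and was lost with near-identical libraries summed (0.75 ± 0.44, adjusted p = 0.38) and in 6 of 9 fits without 1 library (without A1, A46, A48, S38, S39 or S43, 0.75 to 1.09). CA6 was at −1.17 ± 0.39 in Mav over Msu (adjusted p = 0.051, edgeR) and was called lower in Mav by DESeq2 (−1.18 ± 0.41, adjusted p = 0.017), by limma (−1.13 ± 0.34, adjusted p = 0.035), without A4 (−1.49 ± 0.36, adjusted p = 0.015) and without S42 (−1.32 ± 0.41, adjusted p = 0.036). Without S42 the Msu libraries left were near-identical. The Mmo T0 plant M12c, with the highest CA6, also had 17.3 CPM of CA3, against 1.78 to 2.2 CPM in the other 3, and a senescence sum of 4136 CPM, against 36.4 to 102 CPM. The 4 drought-induced genes, 4 of 4 of which were lower in Mmo than in Msu, summed to 27.1 to 50.9 CPM in Mmo, against 733, 757, 110, 84.7 and 131 CPM in Mav and 69.1 to 337 CPM in Msu. The Mav plants A1 and A4, with the highest of these sums, also had the highest CA6 of Mav. The guard cell markers summed to 22.2 to 48.2 CPM in Mmo, 38.8 to 70.6 CPM in Mav and 36.1 to 59.2 CPM in Msu, and 4 of 4 drought-induced genes and 2 of 5 guard cell markers were called lower in Mmo than in Mav. The part of these in the differences of CA6 was not tested. Without M12c, CA3 was lower in Mmo than in Msu (−1.49 ± 0.19, adjusted p = 4.8e-04, against 0.01 ± 0.70 with it).

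At T1 the controls of Mmo stood apart from both C2 species. CA1 averaged 1324 ± 173 CPM in Mmo, 3243 ± 1305 CPM in Mav and 4153 ± 1078 CPM in Msu (SD, n = 4 each). It was lower in Mmo than in Mav (log2 fold change −1.29 ± 0.33 SE, adjusted p = 0.015, edgeR) and than in Msu (−1.64 ± 0.27, adjusted p = 0.0015). CA2 averaged 99.5 ± 17.1 CPM in Mmo, 881 ± 141 CPM in Mav and 619 ± 359 CPM in Msu, and was lower in Mmo than in either (−3.14 ± 0.22, adjusted p = 5.6e-05, and −2.62 ± 0.38, adjusted p = 7.5e-04). CA3, low in all species, was higher in Mmo, at 35.2, 7.53, 28.4 and 25.8 CPM, than in Mav (1.50 ± 0.41, adjusted p = 0.021) and Msu (2.26 ± 0.43, adjusted p = 0.0028). CA6 was lower in Mmo than in Msu (−1.41 ± 0.34, adjusted p = 0.0094) and in Mav than in Msu (−1.74 ± 0.48, adjusted p = 0.027). Calls were made for 3 members of Mmo over Mav, 4 of Mmo over Msu and 1 of Mav over Msu, where 24.3% of 19950, 30% of 19733 and 17.8% of 19872 genes were called. Over Mav, the call of CA1 was lost without A3c (−0.99 ± 0.27, under the fold limit) and in a single fit over all libraries (−1.29 ± 0.60, adjusted p = 0.085), and that of CA3 without A14c, M5c or M9c (1.28 to 1.42) and by limma (0.68 ± 0.41, adjusted p = 0.22). The call of CA6 in Mav over Msu was lost without A3c, A12c, A14c, S18c or S26c (−1.84 to −1.44). Without M6c, CA4 was called lower in Mmo than in Mav (−1.43 ± 0.19, adjusted p = 7.0e-04) and than in Msu (−1.34 ± 0.12, adjusted p = 7.8e-05). CA6, which was higher in Mmo than in Msu at T0, was thus lower in Mmo than in Msu at T1.

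In droughted plants at T2 the levels in Mmo were higher than in Mav for CA1 (log2 fold change 5.65 ± 0.80 SE) and CA2 (2.56 ± 0.43), and lower for CA3 (−1.37 ± 0.36) and CA6 (−1.27 ± 0.29), given without a test. The libraries of the 2 species overlapped in none of these 4. Nor did they in CA5, which was higher in Mmo by 0.78 ± 0.20, under the fold limit. CA4 overlapped (0.57 ± 0.34). Of the 20561 genes 32.2% were called in this comparison, while the share of genes without overlap was not counted. Even M20s, at 402 CPM, had more CA1 than the highest Mav plant, at 121 CPM. In rewatered plants CA3 was lower in Mmo, at 1.64, 2.57, 3.67 and 2.77 CPM, than in Mav, at 5.91, 4.82, 6.97 and 5.56 CPM (−1.15 ± 0.25, adjusted p = 0.0046, edgeR), where 35.2% of 20111 genes were called. With near-identical libraries summed this difference was −1.43 ± 0.50 with an adjusted p of 0.14, and in lane 7, which held the 4 Mmo libraries and 1 of Mav, the log2 ratio was −1.06. CA5 was higher in rewatered Mmo, at 40 ± 3 CPM, than in rewatered Mav, at 23.2 ± 2.67 CPM (SD, n = 4 each), by 0.76 ± 0.11 on the log2 scale (adjusted p = 5.2e-04), under the fold limit. CA2 was at 561, 63.7, 64.2 and 63.6 CPM in rewatered Mmo and at 462 to 895 CPM in rewatered Mav (−2.07 ± 0.79, adjusted p = 0.051). Without M25s, CA1 (−1.19 ± 0.22, adjusted p = 0.0017) and CA2 (−3.63 ± 0.26, adjusted p = 1.4e-05) were called and CA3 was under the fold limit (−0.98 ± 0.19). The Mmo libraries left in that fit, M26s, M27s and M28s, were near-identical. These p-values thus do not measure a spread between distinct Mmo profiles.

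**Figure D5:**
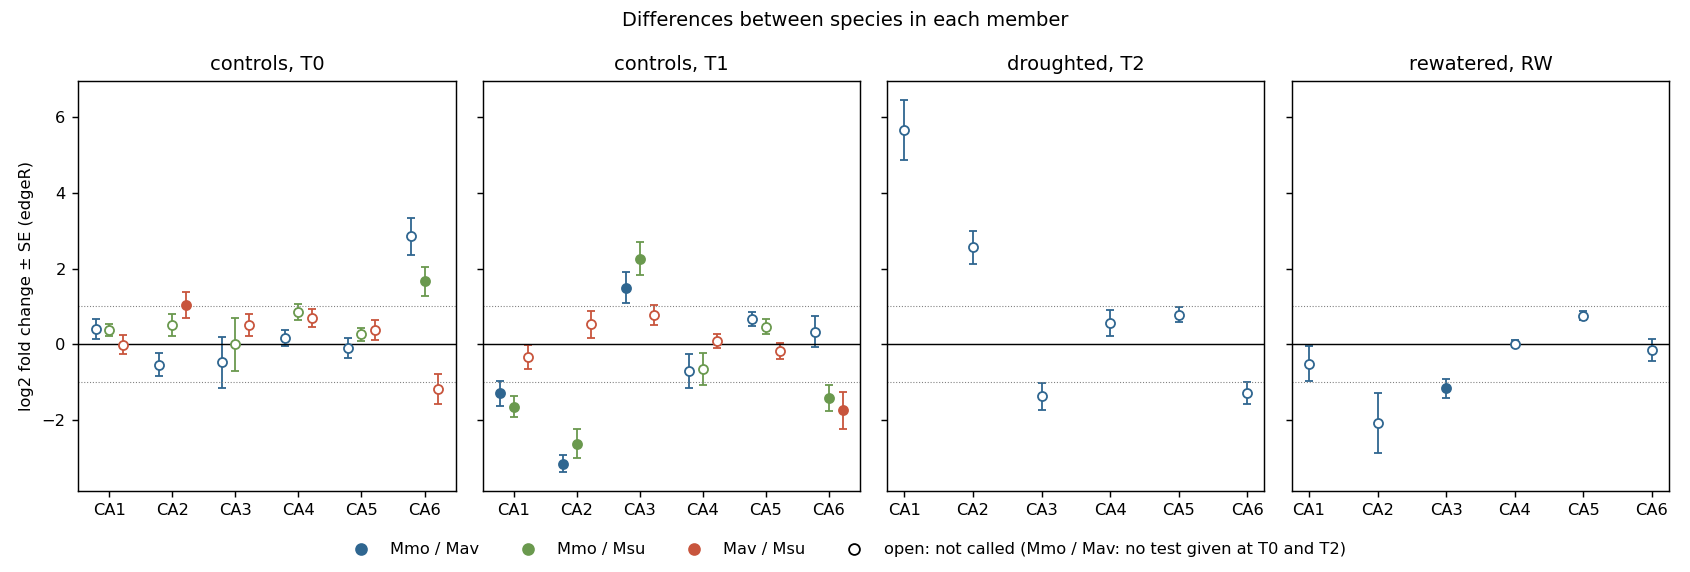
Log2 fold change of each member between species with its SE (edgeR), for T0 controls, T1 controls, droughted plants at T2 and rewatered plants at RW; filled points were called, and the Mmo over Mav values at T0 and T2 are drawn open because no test is given. CA2 was −3.14 and −2.62 in Mmo over Mav and over Msu at T1, and CA1 was 5.65 in Mmo over Mav in droughted plants at T2.

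Controls also moved along the assay, which bears on every comparison across sampling points. In Mmo, CA1 was at 1280, 1099, 1438 and 1479 CPM in T1 controls, against 4839, 6088, 6351 and 4581 CPM in T0 controls, and fell by 2.04 on the log2 scale (SE 0.24, adjusted p = 0.0012, edgeR). CA2 fell by 2.50 (SE 0.26, adjusted p = 7.9e-04), and 11.8% of 19417 genes were called. Without M6c, CA4 (−1.45 ± 0.15) and CA6 (−1.45 ± 0.41) were called lower too, CA6 was also called without M3s or without M4s, and without M12c CA3 was called higher (3.57 ± 0.51). The T2 controls of Mmo were again at 4989 and 4583 CPM of CA1, and the RW controls at 1092, 1023, 2428 and 1099 CPM, so the well-watered level of CA1 in Mmo did not keep to one value and was as low as that of the T1 droughted plants at T1. In Mav CA6 was at 12.9, 22.8, 16, 10.4 and 20.9 CPM in T2 controls, against 2.93 to 10.8 CPM in T0 controls (1.43 ± 0.39, adjusted p just under 0.05, where 4.94% of 19821 genes were called), a call that was lost in 8 of 10 fits without 1 library, the exceptions being A4 and A16c. Its log2 ratio was 1.72 within lane 1 and 0.90 within lane 7. CA6 of the T0 controls of Mav and Mmo was behind the choice of the family. The p-values of CA6 against these controls are therefore no independent support. In Msu CA6 was at 55.5, 24.5, 76.2 and 39.7 CPM in T1 controls, against 9.14 to 15.4 CPM in T0 controls (1.85 ± 0.34, adjusted p = 0.0086, where 8.8% of 19743 genes were called). Summing near-identical libraries raised the adjusted p of this rise in Msu to 0.12 (1.99 ± 0.50). Without S42 CA4 was called as well (1.01 ± 0.10), but the T0 controls left in that fit were near-identical. The T1 and T0 controls of Mmo came from lane 5 and those of Msu from lane 3, so these differences stood within single lanes.

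The genes whose group means ran most like those of each member were found over the 20 groups, among 16396 genes with a mean log2 CPM of at least 1, and likeness was measured by Pearson's correlation as a description. For CA6 the closest was AT4G14430, with a correlation of 0.940, and for CA2 AT4G16980, with 0.946. For CA4 it was AT1G12900, named GAPDH in the study's tables (0.892), and for CA3 AT1G19440, named KCS4 (0.739). CA1 and CA5 reached at most 0.912 and 0.892. CA3 thus had the least close partner of the 6. Names for the other identifiers are not given in the sources used here.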

How the data were processed

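Total RNA of 78 samples of mature leaves was sequenced on a HiSeq2000. Per the study's methods, the authors aligned reads with BLAT in protein space to a minimal set of TAIR10 coding sequences, kept best-scoring mappings and deposited an estimated count (whole numbers, totals above) and a TPM value per Arabidopsis identifier and library. How ties between related copies were settled is not given in the sources used here. Per the study's methods leaves came from several plants per species and treatment, but as some libraries of a group were near-identical, p-values measure the spread between libraries, which may in part be technical. Groups follow the labels. Lane numbers come from the names of the deposited files.

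Counts were tested with edgeR 4.0.16 in R 4.3.3 (filterByExpr, TMM factors, quasi-likelihood F-test), with Benjamini-Hochberg adjustment over all genes tested, and called at an adjusted p under 0.05 and a log2 fold change over 1 either way. CPM were scaled with TMM over the 78 libraries, and deposited TPM served for levels between members. The members and lists were chosen with earlier results of these data known. The rule for named genes took the 6 members, other listed genes by count with up to 4 called genes named, and up to 3 genes most like each member. Alternatives were RLE factors, no low-count filter, DESeq2 1.42.0, limma 3.58.1 on log2(TPM + 1), an adjusted p of 0.01, no fold limit, 1 fit over the 78 libraries, near-identical libraries summed, lane 7 left out, T1 controls, a replicate block and each library left out, and, chosen after seeing the data, the 7 Msu libraries left out. No test is given for Mmo against Mav at T0 or in T2 drought, nor for the interactions at T2 and for recovery. The fit was tested on simulated data.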

Additional observations from a re-analysis of the deposited data

Results flagged for a closer look

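In groups of 4 to 10 libraries, the library at an end of its group's range was compared with its nearest neighbour (Dixon's test at 95%). Of 84 combinations of member and group, 19 had a library standing apart, where chance alone gives about 1 in 20, and in 10 of the 19 the remaining libraries of the group were near-identical to one another. The test covered 14 groups. All values are CPM. Among Mav T0 controls A46 stood apart with 6952 for CA1 and 1417 for CA2, and among Mav rewatered plants A40s with 1888 for CA1, 462 for CA2 and 41.9 for CA6. Among Msu T0 controls S42 did so with 4594 for CA1, 628 for CA2, 143 for CA4 and 9.14 for CA6. Among Mmo rewatered plants M25s had 4583 for CA1, 561 for CA2 and 125 for CA4, and among Mmo RW controls M23c had 2428 for CA1. Single members stood apart in A17c (CA2 at 291, Mav RW controls), M12c (CA3 at 17.3, Mmo T0 controls), A22c (CA4 at 127, Mav T2 controls), M6c (CA4 at 235, Mmo T1 controls), A6c (CA5 at 41, Mav RW controls) and the Msu rewatered plant S2s (CA5 at 32.5).

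The single droughted Mav library at T1, which entered no test, had CA6 at 84.6 CPM, above its 4 controls.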

How the results depend on the processing

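Of 1320 log2 fold changes of members under other settings, 1244 stayed on the same side of the threshold, 52 uncalled ones among them with the other sign, while 30 lost a call, 43 gained one and 3 reversed. With 1 library left out 1369 of 1428 stayed on the same side, 68 of them uncalled with the other sign. In the 4 comparisons given without a test (Mmo over Mav at T0 and in T2 drought, the interactions at T2 and for recovery), members past the fold limit alone were counted, as a description, and the limits on p and fold were not varied. The falls of CA1, CA2 and CA4 and the rise of CA6 in Mav at T2 held in every setting run. The 3 reversals include CA2 in rewatered over control Msu, at −0.52 with T1 controls, counted under both settings that use these controls. With T1 controls that comparison holds none of the Mmo-like libraries, so both settings are the same fit. The remaining reversal was CA3 in the T2 interaction at −2.85 with T1 controls. The cause was not tested. The number of members called changed by more than 1.5 times as follows, the value in edgeR's standard setting standing in parentheses.

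Near-identical libraries summed left 0 called in Mav over Msu at T0 (1), rewatered Mmo over Mav (1), rewatered over T2 drought in Mmo (1) and in Msu (2), and T1 over T0 controls in Msu (1). An adjusted p of 0.01 left 0 in Mav over Msu at T0 and at T1 (1 each), rewatered over T2 drought in Msu (2) and T2 over T0 controls in Mav (1), and 1 in Mmo over Mav at T1 (3). With no fold limit there were 2 in Mmo over Msu at T0 (1), 2 in rewatered Mmo over Mav (1), 4 in rewatered over control Msu (2) and 2 in T1 over T0 controls of Msu (1). With no filter there were 2 in rewatered Mmo over Mav (1), 1 in Mmo drought at T2 (0) and 0 in T2 over T0 controls of Mav (1). DESeq2 gave 2 in Mav over Msu at T0 (1), 2 in rewatered Mmo over Mav (1), 4 in T1 over T0 controls of Mmo (2), and 1 each in Msu drought at T1, Mmo drought at T2, rewatered over control Mav and the T1 interaction (0 each). limma gave 2 in Mav over Msu at T0 (1), 1 in rewatered over control Msu (2) and 0 in rewatered over T2 drought in Msu (2). Without lane 7 there were 0 in Mav over Msu at T0 (1), rewatered over T2 drought in Msu (2) and T2 over T0 controls of Mav (1), and 1 in rewatered over control Msu (2). A single fit over all libraries gave 0 in Mav over Msu at T0 (1), 2 in rewatered Mmo over Mav (1), 1 in Msu drought at T2 (0), 1 in rewatered over control Mav (0) and 1 in rewatered over control Msu (2). T1 controls gave 2 in Mmo drought at T2, 1 in rewatered over control Mmo and 1 in the RW interaction (0 each), put 5 past the fold limit in the T2 interaction (3), and with the 7 Mmo-like libraries left out as well 4 in Msu drought at T2 (0).

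With 1 library left out, counts ran from 1 to 2 in Mmo over Mav and Mmo over Msu at T0, 0 to 2 in Mav over Msu at T0, 2 to 4, 4 to 5 and 0 to 1 for the same pairs at T1, 4 to 4 in droughted and 1 to 2 in rewatered Mmo over Mav. For drought they were 2 to 3 in Mmo and 0 to 1 in Msu at T1, and 0 to 1 in Mmo, 4 to 4 in Mav and 0 to 0 in Msu at T2. For rewatered over control they were 0 to 0 in Mmo, 0 to 1 in Mav and 1 to 2 in Msu, and over T2 drought 1 to 2, 4 to 4 and 0 to 2 in the same species. The interactions ran from 3 to 4 at T2, 0 to 1 at RW and at T1 and 3 to 3 for recovery, and the controls over time from 2 to 4 in Mmo, 0 to 1 in Mav and 1 to 2 in Msu. CA3 in Mmo over Msu at T0 ran from −1.49 to 0.37. Replicate codes S2s and S4s occurred in Msu at T2 and RW, and the deviations of same-coded libraries from their group means correlated at 0.12 and −0.03. The T2 mean pools S2s and S4s with the Mmo-like S5s and S8s, and the RW mean pools near-identical pairs. These correlations therefore cannot decide whether same-coded samples came from the same plant. A fit with the code as a block called 3 members in place of 2, CA1 (3.91), CA2 (3.60) and CA6, but no longer CA3 (−0.86).

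Each member had at least 40 counts in each library. The comparisons in Mmo and Msu rest on few libraries, some of them near-identical or Mmo-like.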
